A study of Mus musculus with 8 samples.

Results

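The ATP-binding cassette (ABC) transporter genes were taken as those whose annotated symbol is Abc, a letter from a to g and a number, and the letter gives the subfamily. The array held a probe set naming a single such gene for 44 genes among 18194 genes in all, namely 14 of subfamily A, 7 of B, 10 of C, 3 of D, 1 of E, 3 of F and 6 of G. The choice used symbols only, and a gene with several probe sets is represented by its brightest one (mean of all 8 arrays). Levels are log2 of the deposited intensity. Of the 44 genes, 36 reached 5 (log2) on at least 2 arrays and were tested, as were 13136 of all genes.

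RNA came from filtered cell suspensions of 2 blood-forming tissues of C57B6/J mice, namely marrow flushed from femur and tibia of 3-month-old males and liver of embryos at day 14.5, whose sex the labels give as undetermined. In each tissue mice with intact Col18a1 alleles (Col18a1+/+, wild-type) were set against mice lacking Col18a1, the gene of type XVIII collagen (Col18a1-/-, knockout). Each array held RNA of 2 littermates pooled before extraction, and each of the 4 groups had 2 arrays. The comparisons ask how ABC gene expression differs between the fetal and the adult tissue and whether it differs without collagen XVIII.

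ABC proteins share an ATP-binding domain, and most use ATP to move a substrate across a membrane. In liver they export bile salts, phospholipid, sterols and conjugated anions into bile. In blood cells they export cholesterol, porphyrins, leukotrienes and drugs, and Abcg2 is the pump behind the dye efflux used to find blood stem cells. Members of subfamilies E and F have no membrane span and act on ribosomes and translation.

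Across the series, Col18a1 read 7.84 and 7.85 on the wild-type and 5.63 and 5.99 on the knockout marrow arrays, and 9.06 and 9.18 against 8.17 and 8.06 on those of fetal liver. Whether this probe set lies within the deleted stretch is unknown here, and in fetal liver the knockout arrays kept a level of at least 8.06. Xist, the RNA of the silenced X chromosome, read 11.04 and 11.22 on the wild-type but 4.97 and 4.77 on the knockout fetal liver arrays, and the Y-linked Eif2s3y 3.29 and 3.00 against 9.38 and 9.42. In fetal liver a genotype difference and this sex-linked difference cannot be told apart. On the marrow arrays Xist read 4.61 to 5.03 and Eif2s3y 9.38 to 10.03. The wild-type tissue differences thus also set Xist-high fetal liver against Xist-low marrow, and the 2 cannot be told apart there. In knockout Xist was low in both tissues. None of the 44 ABC genes lies on chromosome X or Y. All 10 hepatoblast markers were higher in fetal liver, with a summed level (log2 of summed intensities) of 8.08 to 8.25 in marrow and 16.33 to 16.44 in fetal liver. In marrow all 8 measured neutrophil markers (16.94 to 16.99, against 13.14 to 13.70 in fetal liver) and all 9 measured B cell markers (13.73 to 13.85, against 8.40 to 8.55) were higher. RMA values hold no 0, and in marrow the hepatoblast markers lay between 3.40 for Rbp4 and 6.05 for Hnf4a as group means. A level in these bulk samples cannot tell apart more cells of a type from more RNA per cell, and the part that cell content plays in the tissue differences was not tested.

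The stretches before the transcription start are shown first for 3 genes: Abcc2, with the greatest fitted difference towards fetal liver, Abca13, with the greatest towards marrow, and, for contrast, Abcf1, one of the genes without a membrane span. They are the 250 bases before the RefSeq start (GRCm38.p6), written 5′ to 3′ on the strand of the gene, and capitals mark each CG dinucleotide. Abcc2 lies at chr19:43782058-43782307 on the plus strand, Abca13 at chr11:9191692-9191941 on the plus strand and Abcf1 at chr17:35969751-35970000 on the minus strand.
Abcc2: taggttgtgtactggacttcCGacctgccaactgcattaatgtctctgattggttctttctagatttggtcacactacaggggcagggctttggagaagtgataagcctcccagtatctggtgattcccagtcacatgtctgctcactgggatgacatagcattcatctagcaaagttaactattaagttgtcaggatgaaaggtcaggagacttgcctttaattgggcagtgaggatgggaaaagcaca
Abca13: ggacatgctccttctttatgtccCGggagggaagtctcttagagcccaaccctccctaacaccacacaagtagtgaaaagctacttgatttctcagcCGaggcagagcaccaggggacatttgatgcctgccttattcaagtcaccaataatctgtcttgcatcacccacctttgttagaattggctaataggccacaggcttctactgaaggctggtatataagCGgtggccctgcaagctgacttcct
Abcf1: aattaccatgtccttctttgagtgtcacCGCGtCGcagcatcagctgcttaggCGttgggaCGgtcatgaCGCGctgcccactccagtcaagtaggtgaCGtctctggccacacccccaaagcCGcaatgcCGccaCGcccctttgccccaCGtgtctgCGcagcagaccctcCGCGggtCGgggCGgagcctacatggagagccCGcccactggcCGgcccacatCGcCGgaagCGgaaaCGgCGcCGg
The stretch of Abcc2 held 1 CG, that of Abca13 held 3 and that of Abcf1 held 25, where the median over 32851 promoters of the table was 6 and that over 41 promoters of 34 ABC genes was 12.

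A further stretch is partly shared by the paired genes Abcg5 and Abcg8. Their proteins form 1 sterol exporter, the genes lie next to each other on chromosome 17 in opposite orientation, and the 250 bases before the 2 starts overlap by 109 bases. Capitals mark the GATA motif, searched as AGATAA on both strands (TTATCT on the opposite strand), in the 250 bases before the downstream one of 2 RefSeq starts of Abcg8, chr17:84682871-84683120 on the plus strand.
Abcg8: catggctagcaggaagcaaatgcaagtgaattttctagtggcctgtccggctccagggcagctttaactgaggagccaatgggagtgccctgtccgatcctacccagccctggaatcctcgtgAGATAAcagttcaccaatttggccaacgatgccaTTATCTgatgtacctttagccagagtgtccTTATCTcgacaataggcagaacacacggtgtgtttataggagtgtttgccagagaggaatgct
The motif occurred 3 times, once as AGATAA and 2 times as TTATCT. Both TTATCT copies lie in the overlap and count for Abcg5 too, and the AGATAA copy lies outside it. The motif was present in 9.99% of all promoters and in 5 of the 41 ABC promoters, those of Abcg5 and Abcg8 counting separately for the same bases and the others being of Abca14, Abca16 and Abcf2. A match is a run of letters and not a measured binding site.

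Most ABC genes differed in level between fetal liver and adult marrow, in both directions. In wild-type arrays 17 of the 36 tested genes were higher in fetal liver and 9 were lower (limma, adjusted p under 0.05), which is 72.2% of them, where 65.9% of all genes tested were called (39.2% higher and 26.8% lower). At an unadjusted p under 0.05 the counts were 27 of 36 ABC genes and 68.9% of all genes. In knockout arrays 20 were higher and 10 lower, or 83.3%, where 63.8% of all genes were called (36.6% higher and 27.1% lower), and 30 ABC genes and 67.3% of all genes had an unadjusted p under 0.05. The same 17 genes were higher and the same 9 lower in both genotypes, together 72.2% of the family, where 55.1% of all genes were called in both in 1 direction (31.8% higher and 23.3% lower). Since most genes of the array differed between the tissues, these shares say little about the family. Of the 36 genes 4 (Abca4, Abca5, Abcc2 and Abcc6) were under 5 on all marrow arrays and 1 (Abca13) on all fetal liver arrays, against 5.99% and 2.11% of all genes. These passed the level filter through 1 tissue alone and so had to differ, and all of them are among the 17 and the 9. The median difference was 0.24 in wild-type and 0.38 in knockout (log2, fetal liver minus marrow, as all tissue differences here, with ± for the standard error of the fit to 2 arrays per group), against 0.14 and 0.11 over all genes. The 2 genotypes use separate arrays, and the differences of the 36 genes correlated between them at r = 0.976, genes not being independent replicates and the value over all genes being 0.973.

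**Figure D1:**
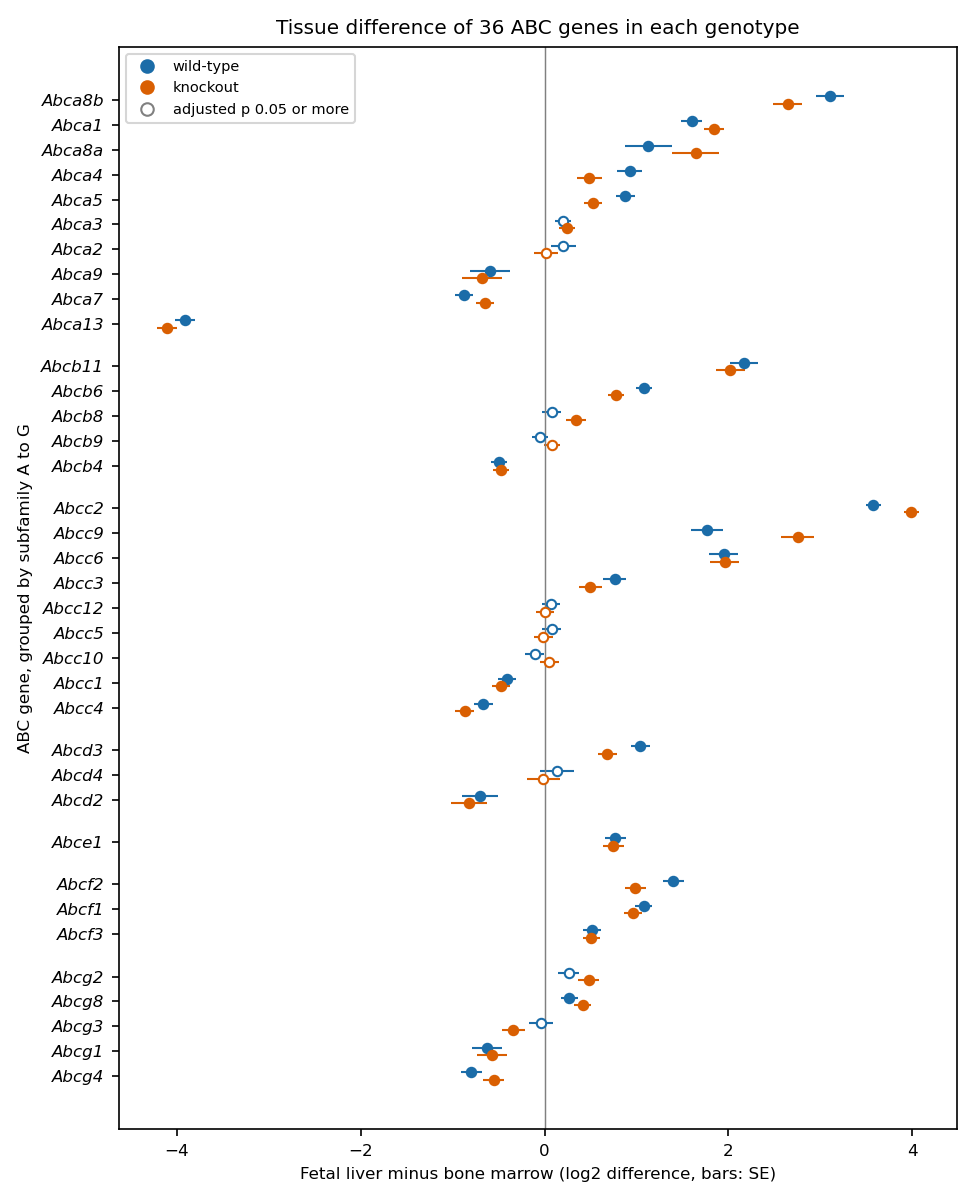
Log2 difference of fetal liver minus bone marrow for the 36 tested ABC genes, by subfamily, in wild-type (blue) and knockout (orange) arrays, with bars for the standard error of the fit. Open points did not pass. Abcc2 and Abca8b stand far to the right and Abca13 far to the left in both genotypes.

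Several transporters known from hepatocytes were higher in fetal liver. Abcc2 exports conjugated bilirubin and other anions into bile. It read 4.52 and 4.54 on the wild-type and 4.66 and 4.66 on the knockout marrow arrays, against 8.11 and 8.10 on the wild-type and 8.63 and 8.68 on the knockout fetal liver arrays. No marrow array reached any fetal liver array. The marrow values are under the filter level and not shown to be above background, so the fitted differences of 3.58 in wild-type and 3.99 in knockout are not measured folds. Abcb11, the bile salt export pump, read 4.61 and 5.02 on the wild-type and 5.04 and 4.92 on the knockout marrow arrays, against 6.83 and 7.13 on the wild-type and 6.95 and 7.07 on the knockout fetal liver arrays. It too was higher on every fetal liver array, by 2.17 ± 0.15 (adjusted p = 3.32e-06) in wild-type and 2.02 ± 0.15 (adjusted p = 5.44e-06) in knockout. The marrow values of Abcb11 lie near the filter level and are not shown to be above background, so these are not measured folds. Abcc6, a liver transporter whose loss causes tissue calcification, read 4.01 and 4.30 on the wild-type and 4.16 and 4.19 on the knockout marrow arrays, against 6.28 and 5.93 on the wild-type and 5.97 and 6.30 on the knockout fetal liver arrays. Its marrow values too are under the filter level and not shown to be above background, and the fitted differences were 1.95 in wild-type and 1.96 in knockout. Abcc3, which exports anions from hepatocytes back to blood, was higher by 0.77 ± 0.13 in wild-type and 0.50 ± 0.13 in knockout.

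Abcb4 went the other way although it too belongs to the bile canaliculus, where it moves phosphatidylcholine. It read 10.22 and 10.26 on the wild-type and 10.42 and 10.33 on the knockout marrow arrays, against 9.74 and 9.74 on the wild-type and 9.87 and 9.93 on the knockout fetal liver arrays. All 4 marrow values lay above the fetal liver values, and the difference was -0.50 ± 0.09 (adjusted p = 0.000817) in wild-type and -0.47 ± 0.09 (adjusted p = 0.00118) in knockout. Of the 3 genes of the bile canaliculus 2 were thus higher and 1 lower in fetal liver. Among 9 tested genes of the list around bile acid transport, 4 were higher and 1 lower in each genotype. Beside this and the list counts that follow stand the shares of all genes given above, 39.2% higher and 26.8% lower in wild-type and 36.6% and 27.1% in knockout. Nr1h4, the bile acid receptor FXR, had a fitted difference of 2.15 in wild-type, and Hnf4a differed by 3.14 ± 0.17. Atp8b1, a canalicular lipid flippase, differed by 3.15 ± 0.17, and Nr1i2, the xenobiotic receptor PXR, had a fitted difference of 2.55. Nr1h4 and Nr1i2 were under the filter level on all marrow arrays (3.81 to 4.03 and 3.69 to 4.15). Both passed the filter through fetal liver alone and so had to differ, and their fitted differences are not measured folds. They are among the 4 counted as higher.

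The sterol and phospholipid exporters were divided between the tissues. Abca1 loads cholesterol and phospholipid onto apolipoprotein A-I. It read 9.08 and 9.09 on the wild-type and 9.32 and 9.04 on the knockout marrow arrays, against 10.61 and 10.75 on the wild-type and 11.02 and 11.02 on the knockout fetal liver arrays. Every fetal liver array lay above every marrow array, by 1.60 ± 0.11 (adjusted p = 2.91e-06) in wild-type and 1.84 ± 0.11 (adjusted p = 1.21e-06) in knockout. Abcg8 differed by 0.27 ± 0.09 (adjusted p = 0.0318) in wild-type and 0.42 ± 0.09 (adjusted p = 0.00423) in knockout, and its partner Abcg5 stayed between 3.43 and 4.20, under the level needed for testing.

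Abca7, Abcg1 and Abcg4 were lower in fetal liver than in marrow. Abca7, a relative of Abca1 that moves phospholipid, read 8.98 and 8.95 on the wild-type and 8.98 and 8.92 on the knockout marrow arrays, against 7.999 and 8.19 on the wild-type and 8.35 and 8.27 on the knockout fetal liver arrays. It was lower in fetal liver, with a difference of -0.87 ± 0.10 (adjusted p = 5.77e-05) in wild-type and -0.64 ± 0.10 (adjusted p = 0.000421) in knockout. Abcg1, which passes cholesterol to high-density lipoprotein, read 8.91 and 8.75 on the wild-type and 9.04 and 9.002 on the knockout marrow arrays, against 7.95 and 8.46 on the wild-type and 8.57 and 8.33 on the knockout fetal liver arrays. All 4 marrow values exceeded the fetal liver values, and the difference was -0.62 ± 0.16 (adjusted p = 0.00896) in wild-type and -0.57 ± 0.16 (adjusted p = 0.0142) in knockout. The call was lost in wild-type without wild-type marrow replicate 1 (-0.55, adjusted p = 0.0568) or wild-type fetal liver replicate 1 (-0.37, adjusted p = 0.0523), and in knockout without either knockout marrow array or the second knockout array of fetal liver (adjusted p = 0.0528 to 0.0851). A second, dimmer probe set of Abcg1 gave -0.04 in wild-type and -0.18 in knockout and did not pass. Abcg4, the closest relative of Abcg1, differed by -0.80 ± 0.11 (adjusted p = 0.000262) in wild-type and -0.55 ± 0.11 (adjusted p = 0.00254) in knockout, and its second probe set gave -0.12 and 0.18 without passing.

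Of 17 measured genes of cholesterol handling, 12 were higher in fetal liver in each genotype, 2 were lower in wild-type and 3 in knockout. Hmgcs1, an enzyme of cholesterol synthesis, differed by 3.51 ± 0.09 (adjusted p = 9.99e-09) and Sqle, squalene epoxidase, by 2.69 ± 0.11 in wild-type. Apoa1, the acceptor of lipid from Abca1, had a fitted difference of 8.70, and the scavenger receptor gene Cd36 differed by -2.45 ± 0.10. Apoa1 lay between 4.19 and 5.18 in marrow, not shown to be above background, so its value is not a measured fold. The list median was 0.96 in wild-type, against 0.14 over all genes.

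Abca13 had the greatest fitted difference towards marrow. It encodes a very large A subfamily protein whose substrate is not well established. It read 8.68 and 8.56 on the wild-type and 8.75 and 8.85 on the knockout marrow arrays, against 4.59 and 4.82 on the wild-type and 4.63 and 4.77 on the knockout fetal liver arrays. The groups of the 2 tissues lay far apart. The fetal liver values are under the filter level and not shown to be above background, so the fitted differences of -3.91 in wild-type and -4.11 in knockout are not measured folds. A second probe set of Abca13 gave -4.05 and -3.92. It too was under the filter level on all fetal liver arrays (3.64 to 4.45). Both probe sets passed through marrow alone and so had to differ. All 8 measured neutrophil markers were lower in fetal liver, by a median of -3.86 in wild-type and -3.99 in knockout. So were all 9 measured B cell markers (-5.53 and -5.93) and all 6 mast cell and basophil markers (-2.09 and -2.51). Of 10 macrophage markers 4 were higher and 3 lower in each genotype. The part of these cell types in the Abca13 difference was not tested.

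**Figure D2:**
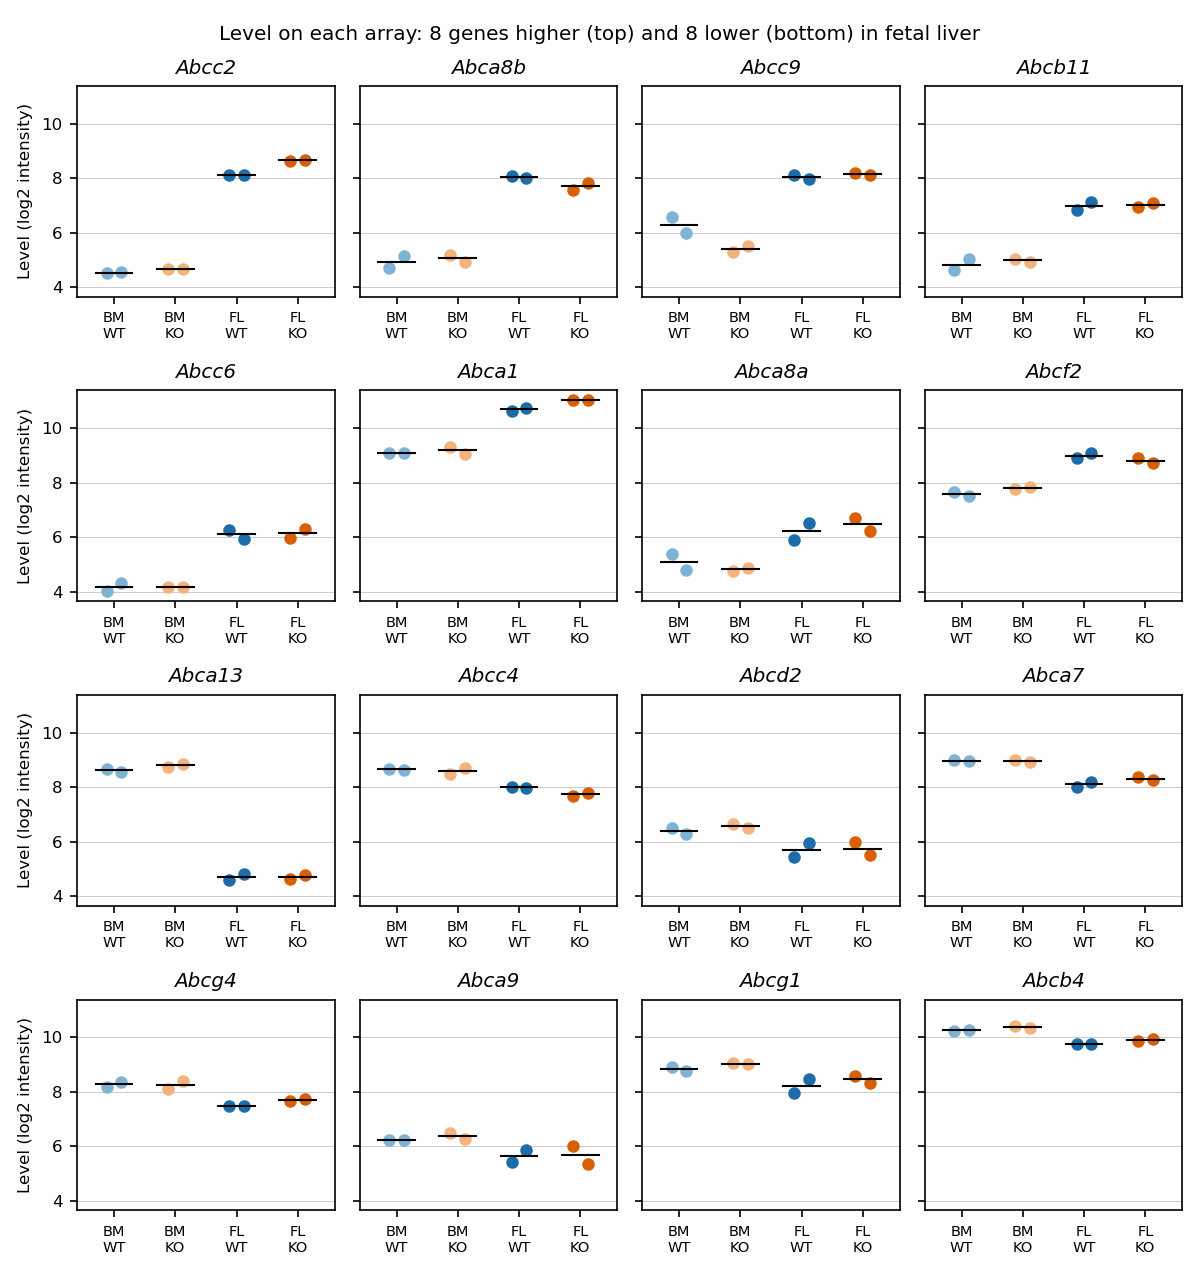
Level (log2 intensity) on each of the 8 arrays for 16 ABC genes, with points for single arrays, lines for group means, BM for bone marrow, FL for fetal liver, WT for wild-type and KO for knockout. The upper 8 genes lie higher in fetal liver and the lower 8 in marrow, without overlap of the tissues in either genotype.

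Neighbouring genes of subfamily A differed in direction. Abca8b, Abca8a, Abca9, Abca6 and Abca5 follow each other on chromosome 11. Abca8b read 4.71 and 5.13 on the wild-type and 5.18 and 4.94 on the knockout marrow arrays, against 8.06 and 7.999 on the wild-type and 7.58 and 7.83 on the knockout fetal liver arrays, and differed by 3.11 ± 0.16 (adjusted p = 3.86e-07) in wild-type and 2.65 ± 0.16 (adjusted p = 1.07e-06) in knockout. Abca8a read 5.38 and 4.79 on the wild-type and 4.76 and 4.88 on the knockout marrow arrays, against 5.90 and 6.53 on the wild-type and 6.70 and 6.22 on the knockout fetal liver arrays, and differed by 1.13 ± 0.25 (adjusted p = 0.00384) in wild-type and 1.64 ± 0.25 (adjusted p = 0.000461) in knockout. The marrow values of Abca8b and Abca8a lie near the filter level and are not shown to be above background, so their differences are not measured folds. Abca5, a lysosomal member, had fitted differences of 0.88 and 0.53. It was under the filter level on all marrow arrays (4.75 to 4.99), passed through fetal liver alone and so had to differ. Abca8b, Abca8a and Abca5 were higher in fetal liver in both genotypes. Abca9, lying between them, was lower there, with a difference of -0.59 ± 0.22 (adjusted p = 0.0388) in wild-type and -0.68 ± 0.22 (adjusted p = 0.0232) in knockout. It read 6.23 and 6.23 on the wild-type and 6.48 and 6.26 on the knockout marrow arrays, against 5.42 and 5.86 on the wild-type and 6.02 and 5.36 on the knockout fetal liver arrays, and the arrays of each fetal liver group spread almost as widely as the tissues differed. The call of Abca9 was lost in wild-type without any 1 of the 4 marrow arrays (adjusted p = 0.0536 to 0.109) or wild-type fetal liver replicate 1 (-0.37, adjusted p = 0.231), and in knockout without knockout marrow replicate 1 (adjusted p = 0.126) or knockout fetal liver replicate 2 (-0.34, adjusted p = 0.148). It was also lost in wild-type with arrays centred on their medians (adjusted p = 0.0521) and with quantile normalization repeated (adjusted p = 0.0749). Abca6 stayed between 3.40 and 4.49.

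The genes without a membrane span were all higher in fetal liver. Abce1, which splits ribosomes after translation ends, read 10.18 and 10.05 on the wild-type and 10.25 and 10.01 on the knockout marrow arrays, against 10.92 and 10.84 on the wild-type and 10.80 and 10.96 on the knockout fetal liver arrays. It differed by 0.77 ± 0.11 (adjusted p = 0.000345) in wild-type and 0.75 ± 0.11 (adjusted p = 0.000437) in knockout. Abcf1, which binds the initiation factor eIF2, read 9.81 and 9.68 on the wild-type and 9.80 and 9.78 on the knockout marrow arrays, against 10.80 and 10.85 on the wild-type and 10.83 and 10.67 on the knockout fetal liver arrays, and differed by 1.08 ± 0.10 (adjusted p = 1.45e-05) in wild-type and 0.96 ± 0.10 (adjusted p = 3.13e-05) in knockout. Of 6 Abcf1 probe sets above the level filter, 5 were positive in wild-type, 4 of them called, and the other one gave -0.15 in wild-type and 0.12 in knockout without passing. Abcf2 differed by 1.40 ± 0.11 (adjusted p = 6.54e-06) in wild-type and 0.99 ± 0.11 (adjusted p = 6.42e-05) in knockout, its second probe set giving 0.12 and -0.20 without passing, and Abcf3 by 0.52 ± 0.10 and 0.51 ± 0.10. Of 16 measured genes of ribosome recycling, termination and eIF2 control, 8 were higher and 1 lower in wild-type, and 9 and 2 in knockout. Eif6, which keeps ribosomal subunits apart, differed by 1.33 ± 0.11, Gcn1, the partner of the eIF2 kinase GCN2, by 1.32 ± 0.12, Eif2s3x by 0.93 ± 0.09 and Eif5b by 1.13 ± 0.14 in wild-type. In knockout, where Xist was low in both tissues, the values were 0.90, 1.39, 0.64 and 1.08 in that order.

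Among transporters of mitochondria and porphyrin, Abcb6 was higher in fetal liver in both genotypes. Abcb6, a porphyrin transporter, read 9.87 and 9.93 on the wild-type and 10.02 and 9.99 on the knockout marrow arrays, against 10.95 and 11.02 on the wild-type and 10.75 and 10.81 on the knockout fetal liver arrays. All fetal liver values exceeded all marrow values, by 1.08 ± 0.09 (adjusted p = 6.94e-06) in wild-type and 0.78 ± 0.09 (adjusted p = 5.86e-05) in knockout. Abcb8, of the mitochondrial inner membrane, differed by 0.08 in wild-type (adjusted p = 0.549) and 0.34 in knockout (adjusted p = 0.0206). Its dimmer probe set gave 1.53 and 1.44, both called. That probe set read 4.65 to 4.98 in marrow, under the filter level, and 6.10 to 6.51 in fetal liver. It passed through fetal liver alone and so had to differ, and its values are not measured folds. The erythroid markers, with 8 measured, had a summed level of 15.55 to 15.62 in marrow and 15.48 to 15.65 in fetal liver. Of 17 measured genes of mitochondrial iron-sulfur and heme steps, 7 were higher in fetal liver in each genotype, and 4 in wild-type and 5 in knockout were lower. Gfer, of mitochondrial protein import, differed by 1.22 ± 0.10, Lyrm4, of the iron-sulfur assembly complex, by 1.25 ± 0.10, Isca1 by -1.15 ± 0.11 and the chaperone gene Hspa9 by 1.25 ± 0.12.

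The peroxisomal pair Abcd3 and Abcd2, which both carry acyl-CoA into the organelle, went in opposite directions. Abcd3 read 8.54 and 8.52 on the wild-type and 8.82 and 8.69 on the knockout marrow arrays, against 9.46 and 9.68 on the wild-type and 9.42 and 9.45 on the knockout fetal liver arrays. It was higher in fetal liver by 1.04 ± 0.10 (adjusted p = 2.68e-05) in wild-type and 0.68 ± 0.10 (adjusted p = 0.000408) in knockout. Abcd2 read 6.49 and 6.29 on the wild-type and 6.64 and 6.48 on the knockout marrow arrays, against 5.42 and 5.95 on the wild-type and 5.97 and 5.52 on the knockout fetal liver arrays, and was lower in fetal liver, with a difference of -0.70 ± 0.20 (adjusted p = 0.0119) in wild-type and -0.82 ± 0.20 (adjusted p = 0.00581) in knockout. In wild-type the Abcd2 call was lost without wild-type marrow replicate 1 (-0.60, adjusted p = 0.0709) or wild-type fetal liver replicate 1 (-0.44, adjusted p = 0.0856). Its other probe sets above the filter gave -1.65 and -2.17 in wild-type, both called. The one at -2.17 was under the filter level on all fetal liver arrays (3.79 to 4.61). It passed through marrow alone and so had to differ, and its value is not a measured fold. Abcd4, which serves lysosomal cobalamin export, differed by 0.14 (adjusted p = 0.532) and -0.01 (adjusted p = 0.96). Of 20 measured peroxisome genes 15 were higher and 0 lower in wild-type fetal liver, with 17 at an unadjusted p under 0.05 (39.2%, 26.8% and 68.9% of all genes), and 12 were higher and 0 lower in knockout, with 12 at an unadjusted p under 0.05 (36.6%, 27.1% and 67.3% of all genes). Acaa1b, a thiolase, differed by 2.87 ± 0.16, Pex14 by 1.38 ± 0.09, Pex10 by 1.24 ± 0.09 and Ehhadh by 2.72 ± 0.21.

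Pumps known from drug efflux did not share a direction. Abcg2, which exports urate, porphyrins and drugs, read 11.31 and 11.42 on the wild-type and 11.48 and 11.30 on the knockout marrow arrays, against 11.55 and 11.70 on the wild-type and 11.97 and 11.77 on the knockout fetal liver arrays. Fetal liver lay above marrow on all arrays, by 0.26 ± 0.11 in wild-type, which missed the threshold (adjusted p = 0.0677), and by 0.48 ± 0.11 in knockout (adjusted p = 0.00526). Abcc1, an exporter of leukotriene C4 and glutathione conjugates, was lower in fetal liver, with a difference of -0.41 ± 0.10 (adjusted p = 0.00512) in wild-type and -0.47 ± 0.10 (adjusted p = 0.00241) in knockout. Abcb1a and Abcb1b, the mouse P-glycoprotein genes beside Abcb4 on chromosome 5, did not reach 5 on 2 arrays and were not tested. Abcb1a lay between 3.50 and 3.91 in marrow and between 4.18 and 4.91 in fetal liver, and Abcb1b between 4.81 and 5.04 in marrow and between 3.18 and 4.03 in fetal liver. With no filter their differences were 1.05 ± 0.18 and -1.12 ± 0.14 in wild-type (adjusted p = 0.000839 and 0.000154).

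Abcc4, which exports cyclic nucleotides and loads platelet granules, read 8.67 and 8.63 on the wild-type and 8.48 and 8.71 on the knockout marrow arrays, against 8.01 and 7.96 on the wild-type and 7.68 and 7.78 on the knockout fetal liver arrays. It was lower in fetal liver, with a difference of -0.67 ± 0.10 (adjusted p = 0.000434) in wild-type and -0.87 ± 0.10 (adjusted p = 9e-05) in knockout. All 9 measured megakaryocyte markers had negative differences in wild-type, 6 of them called, and in knockout 2 were higher and 1 lower. Their part in the Abcc4 difference was not tested.

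Abcc9, the regulatory subunit SUR2 of potassium channels in muscle and vessel walls, was higher in fetal liver by 1.77 ± 0.18 (adjusted p = 2.9e-05) in wild-type and 2.75 ± 0.18 (adjusted p = 1.87e-06) in knockout. Its second probe set gave 0.63 in wild-type and 1.13 in knockout, both called. Abcc9 read 6.58 and 5.98 on the wild-type and 5.30 and 5.50 on the knockout marrow arrays, against 8.12 and 7.98 on the wild-type and 8.19 and 8.11 on the knockout fetal liver arrays, without overlap of the tissues. Of 9 measured endothelial markers 8 were higher in fetal liver in each genotype, with a summed level of 8.99 to 9.25 in marrow and 11.30 to 11.38 in fetal liver. Of 10 stromal markers 5 were higher and 2 lower in wild-type, and 8 and 2 in knockout. Their part in the Abcc9 difference was not tested.

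The remaining tested genes include several near 0. Abca4, the retinal lipid flippase, had fitted differences of 0.93 and 0.49 at levels of at most 5.17. It read 4.07 to 4.45 in marrow, under the filter level, passed through fetal liver alone and so had to differ. Abca3, a surfactant lipid transporter, Abcb8, Abcg2 and Abcg3 were called in knockout and missed the threshold in wild-type, and the interaction was called for none of the 36 genes. A dimmer probe set of Abca3 gave 0.32 in wild-type, which passed, and 0.03 in knockout, which did not. The dimmer one of Abcg3 gave -0.46 and -0.62, and both passed. For Abca2, Abcb9, Abcc5, Abcc10, Abcc12 and Abcd4 neither difference passed, the values running from -0.11 to 0.21. The other genes under the level filter were Abca12, Abca14, Abca16 and Abcc8, which lay between 2.77 and 4.84 on all arrays. With no filter, 4 of the 8 dim genes were called between the tissues in both genotypes, where 39.6% of all genes were, namely Abca6, Abcb1a, Abcb1b and Abcg5.

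Abca13, Abcc2 and Abca8b, with the 3 greatest fitted tissue differences, had 3, 1 and 6 CG dinucleotides before their starts, but the relation across the family was weak. Of the 36 tested genes 28 had a promoter entry. The highest CG count of a gene and the size of its tissue difference had a Spearman rho of -0.19 and a Pearson r of -0.42 across genes. These genes include Abca4, Abca5, Abca13 and Abcc2, which passed the level filter through 1 tissue alone and so had to differ. Both coefficients thus rest in part on values that are not measured folds. Abcc12, with 2 CG dinucleotides, differed by 0.07 and 0.00, and Abcd3, with up to 35, differed by 1.04 and 0.68. Of the other motifs searched on both strands, the C/EBP motif TTNNGCAA was in 3 of 41 ABC promoters and 9.56% of all promoters, the TATA motif TATAAA in 5 and 12.4%, and the HNF4 motif CAAAGT, which the Abcc2 stretch holds once, in 6 and 12.6%. The HNF1 motif GTTAAT was in 0 of the 41 and in 6.43% of all promoters. The GC box GGGCGG was in 20 of the 41 and 32.7% of all promoters, and the CCAAT box CCAAT in 12 and 33.8%. The PU.1 motif GAGGAAGT was in 2 and 2.44%, the E-box CACGTG in 4 and 6.02%, and the palindromic NRF1 motif in 0 and 0.782%. A motif missing from these 250 bases says nothing about the factor.

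**Figure D3:**
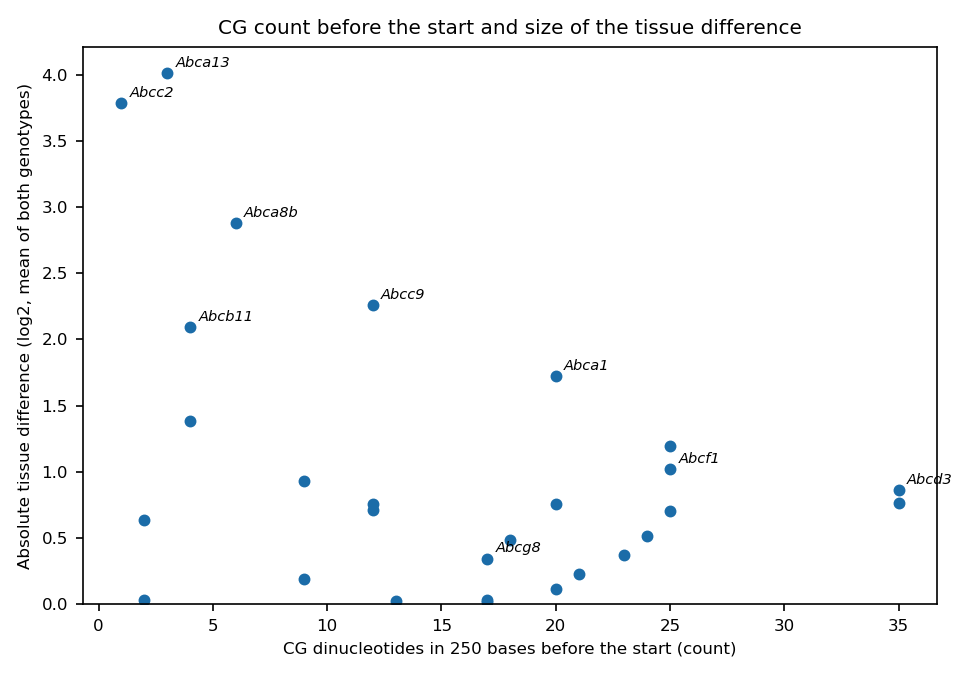
Count of CG dinucleotides in the 250 bases before the start (for genes with several starts, the highest count) against the absolute tissue difference in log2, averaged over both genotypes, for 28 tested ABC genes. Abcc2 and Abca13 combine few CG dinucleotides with a great difference, while Abcc12, with 2, lies near 0.

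Few ABC genes differed between the Col18a1 genotypes by the test. In bone marrow 0 of 36 passed in limma, with 2 at an unadjusted p under 0.05, where 0.411% of all genes were called (0.0457% positive and 0.365% negative) and 6.74% had such a p. The family's median difference was 0.12 (log2, knockout minus wild-type) with 27 of 36 positive, against a median of 0.01 over all genes with 7140 of 13136 positive. Abcc9 had the greatest difference. Its 2 wild-type marrow arrays read 6.58 and 5.98 and its knockout arrays 5.30 and 5.50. The genotypes did not overlap, but the difference of -0.88 ± 0.18 missed the threshold (adjusted p = 0.116). Without wild-type marrow replicate 2 it was -1.18 and passed (adjusted p = 0.0141), and without wild-type marrow replicate 1 it was -0.58 and did not pass. The second Abcc9 probe set gave -0.13.

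Stromal, megakaryocyte and endothelial markers are given for the same arrays, where 5996 of all 13136 tested genes had negative differences and 0.365% were called negative. All 10 stromal markers had negative differences, 2 of them called, with a summed level of 12.16 to 12.47 in wild-type and 11.70 to 11.72 in knockout marrow. Of 9 megakaryocyte markers 7 fell, with a summed level of 13.89 to 14.15 in wild-type and 12.90 to 12.97 in knockout marrow. Of 9 endothelial markers 8 had negative differences and 0 were called, with 3 at an unadjusted p under 0.05 (Cdh5 at -0.61, Lyve1 at -0.35 and Robo4 at 0.31), and their summed level was 9.08 to 9.25 in wild-type and 8.99 to 9.02 in knockout marrow. The part of these markers in the Abcc9 difference was not tested. Abcc4, the transporter found in platelet granules, differed by -0.053 ± 0.10 in the same arrays. The other genes with the smallest p were Abcc3, at 0.37 ± 0.13, Abcd3, at 0.23 ± 0.10, Abcf2, at 0.22 ± 0.11, and Abca2, at 0.26 ± 0.13 (adjusted p = 0.59 to 0.813). Abcc3, Abcd3 and Abcf2 lay higher on both knockout arrays than on both wild-type arrays, and Abca2 overlapped. The genotypes did not overlap for 15 of the 36 ABC genes, or 41.7%, where 43.1% of all genes did not.

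In fetal liver 1 of 36 genes passed, with 5 at an unadjusted p under 0.05, where 0.32% of all genes were called (0.122% positive and 0.198% negative) and 22% had such a p. That gene was Abcc2, which rose from 8.11 and 8.10 on the wild-type arrays to 8.63 and 8.68 on the knockout arrays, by 0.55 ± 0.08 (adjusted p = 0.0424). The groups lay apart by several times their spread. The size stayed between 0.53 and 0.57 with any 1 array left out, but the call was lost without any array other than knockout fetal liver replicate 2 (adjusted p = 0.108 to 0.155). It was also lost with no filter on low values (adjusted p = 0.0773), with arrays centred on their medians (0.51, adjusted p = 0.0532) and with array weights (adjusted p = 0.122). Between the genotypes of fetal liver 5891 of all 13136 tested genes had positive differences. The hepatoblast markers gave 7 of 10 positive differences and 0 called, with 0 at an unadjusted p under 0.05, and a summed level of 16.33 to 16.37 in wild-type and 16.36 to 16.44 in knockout fetal liver. Their part in the Abcc2 difference was not tested. Col18a1 genotype and the sex-linked difference of these pools cover the same arrays.

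**Figure D4:**
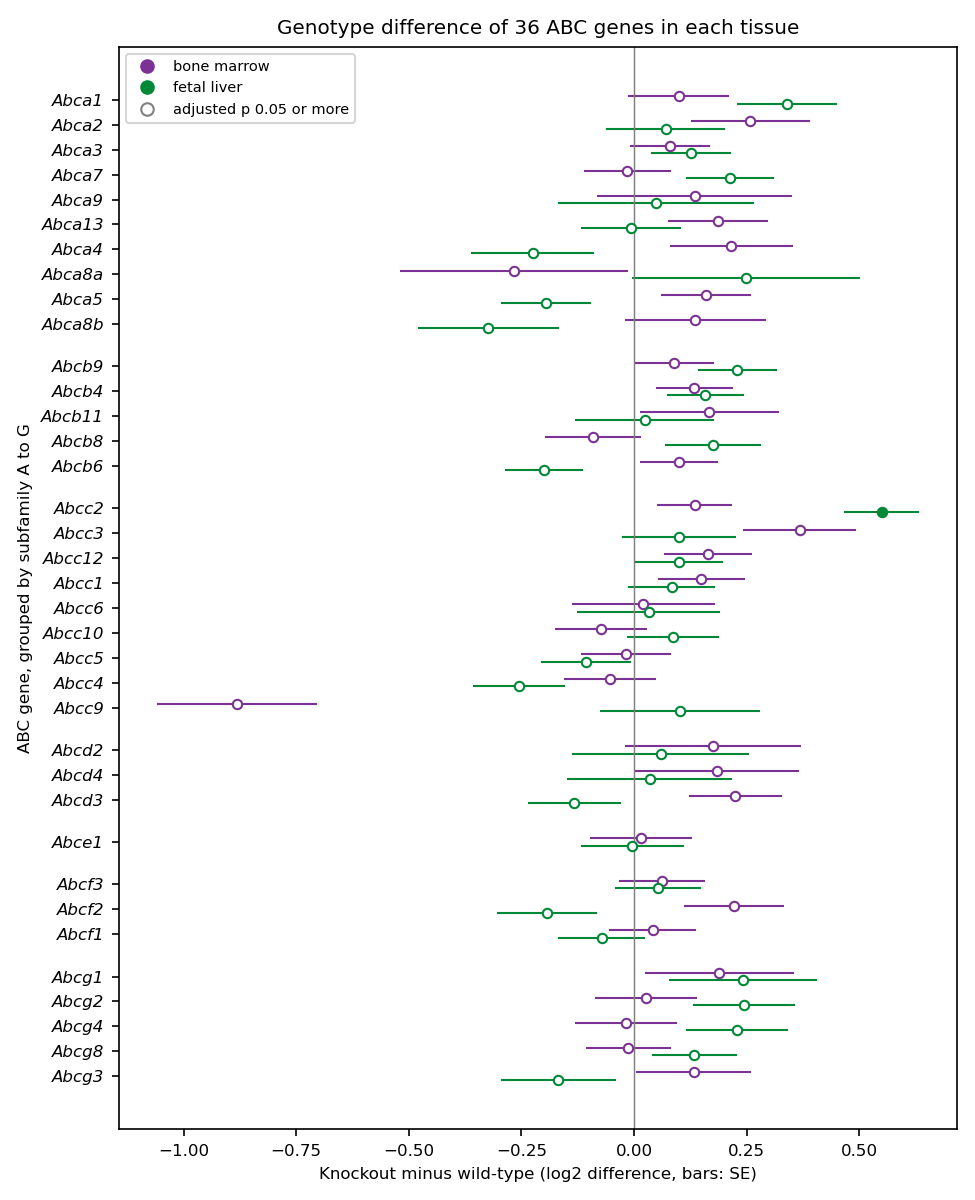
Log2 difference of knockout minus wild-type for the 36 tested ABC genes, by subfamily, in bone marrow (purple) and fetal liver (green), with bars for the standard error of the fit. Abcc2 in fetal liver is the filled point, and Abcc9 in marrow lies farthest to the left without passing.

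Other ABC genes of fetal liver did not pass. Abca1 read 10.61 and 10.75 on the wild-type and 11.02 and 11.02 on the knockout arrays, a difference of 0.34 ± 0.11 (adjusted p = 0.143). Abcb9, a lysosomal peptide transporter, differed by 0.23 ± 0.09, Abcc4 by -0.26 ± 0.10 and Abcb6 by -0.20 ± 0.09 (adjusted p = 0.183 to 0.221). For Abcb9 the dimmer probe sets gave -0.04 and -0.50. These 4 genes, taken for their small p, did not overlap between genotypes, as was so for 19 of the 36 ABC genes, or 52.8%, and for 50.1% of all genes. The median over the family was 0.065, against -0.03 over all genes.

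The interaction tests whether the difference between genotypes is unequal in the 2 tissues (fetal liver minus marrow). Since the genotypes also differ in Xist in fetal liver but not in marrow, it holds that sex-linked difference too, and the 2 cannot be told apart. In limma it was called for 0 of 36 genes, with 6 at an unadjusted p under 0.05, where 0.0914% of all genes were called (0.0685% positive and 0.0228% negative) and 15.7% had such a p. Abcc9 had the greatest value, 0.98 ± 0.25 (adjusted p = 0.174), followed by p by Abcc2, at 0.42 ± 0.12, Abcf2, at -0.41 ± 0.16, Abca5, at -0.35 ± 0.14, and Abcb6, at -0.30 ± 0.12 (adjusted p = 0.2 to 0.293). The Abcc2 rise in fetal liver was therefore not shown to differ from its marrow difference of 0.13 ± 0.08, taken between values under the filter level.

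Some ABC proteins carry other symbols. Tap1 and Tap2 form the peptide pump that loads MHC class I. Tapbp, their partner in peptide loading and not itself an ABC protein, bridges the pump to MHC class I. All 3 were lower in fetal liver, with differences of -1.53 ± 0.13 for Tap1, -1.01 ± 0.11 for Tap2 and -1.12 ± 0.10 for Tapbp in wild-type, and -1.68, -0.74 and -0.94 in knockout. Cftr was under the level filter. None of the 3 tested genes passed between genotypes in either tissue, with 0 in marrow and 1 in fetal liver at an unadjusted p under 0.05. In the lists of sterol, bile acid, peroxisome, iron-sulfur and translation genes limma called 0 genes between genotypes in either tissue. At an unadjusted p under 0.05 these lists of 17, 9, 20, 17 and 16 measured genes held, in that order, 0, 0, 1, 1 and 0 genes in marrow, where 6.74% of all genes had such a p, and 1, 4, 6, 3 and 5 in fetal liver, where 22% had.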

How the data were processed

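Total RNA was hybridised to Affymetrix mouse genome expression arrays, per the labels. The authors deposited 1 linear intensity for each of 45101 probe sets and 8 arrays, made with RMA per the submitters' processing notes, with the version not given in the sources used here. RMA equalises the arrays' distributions and compresses low values. No detection calls were used. Log2 was taken here, median intensities being 40.8 to 42.6. The array number limits precision, and p-values measure the spread between pools only.

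The platform annotation pairs 34958 probe sets with a single gene, and 34754 of these matched the RefSeq table (GRCm38.p6), which gave names, neighbours and promoters. The array files name no build. Some genes with such a symbol are not reported here.

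Group means were estimated from the 8 arrays together in limma 3.58.1 under R 4.3.3 with eBayes defaults, with Benjamini-Hochberg adjustment over 13136 genes, two-sided, at 0.05. The fit was tested on simulated data. The members, lists, roles and tests were chosen with earlier results of these data known. Named genes are every called member for genotype (at least the 5 smallest p) and up to 10 per direction for tissue. Of each pathway list up to 4 genes with the greatest moderated t between wild-type tissues are named. Other ABC genes were named after their values were seen, and roles come from general knowledge. Replicate numbers were treated as names, since the labels do not say whether same-numbered pools share a litter or day. Same-numbered deviations correlated at -0.004 in marrow and -0.06 in fetal liver, which cannot settle that. Alternatives covered filter, probe set choice, normalization, variance model, block, arrays, threshold and each array left out.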

Additional observations from a re-analysis of the deposited data

How the results depend on the processing

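With 2 arrays per group every value is limited, and RMA levels near 5 may be compressed. The count of ABC genes called between genotypes in fetal liver, 1 in the report, was 0 with no filter on low values, 0 without _s_at and _x_at probe sets (which leaves no Abcc2 probe set), 0 with arrays centred on their medians, 0 with array weights, 0 with only the arrays of the contrast, 0 at a threshold of 0.01, and 0 with the replicate number as a block, where the adjusted p of Abcc2 was 0.156. Its adjusted p over all alternatives ran from 0.0272 to 0.3. In marrow the count of 0 was 1 with a trended and robust variance (Abcc9, adjusted p = 0.0381). With 1 array left out both counts lay between 0 and 1 and the interaction stayed at 0. A group left with 1 array was assumed to vary like the others. The tissue counts lay between 22 and 27 in wild-type and between 25 and 30 in knockout with 1 array left out, and between 23 and 29 and between 24 and 33 under the other settings. The block also ended the wild-type tissue call of Abca9 (adjusted p = 0.0654) and no other tissue call of a gene chosen by the naming rule, with 24 and 29 ABC genes called between the tissues.

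Reversals were found for Abcb9 in fetal liver between genotypes, at -0.11 with the mean of all probe sets, and for Abcf1 between the wild-type tissues, at -0.15 without _s_at and _x_at probe sets. The cause was not tested. With the mean of all probe sets the tissue calls of Abca9 (-0.23) and Abcc1 (-0.14) in wild-type and of Abcg4 (-0.18) and Abcc1 (-0.10) in knockout were lost. Centring and repeated quantile normalization ended the wild-type call of Abca9 (adjusted p = 0.0521 and 0.0749).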

Other observations

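Abcc5, an exporter of cyclic nucleotides and other anions, had more probe sets than any other ABC gene analysed here, and they agreed on a small tissue difference. Of its 10 probe sets 7 were above the level filter, and these gave between -0.25 and 0.16 in wild-type and between -0.18 and 0.12 in knockout (log2, fetal liver minus marrow), none of them called. Over the family, 16 genes had several probe sets above the filter, and for 13 of them all such probe sets had 1 sign in wild-type. Some of these, among them probe sets of Abca1, Abca13, Abcb8 and Abcd2, passed the filter through 1 tissue alone and so had to differ.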
